A study of Mus musculus with 3 samples.

Results

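The effect of CWG-cPIP on the CUG300 hippocampus was examined at the level of RNA splicing, in the pair of libraries that share the 300-repeat virus and differ in the compound. CUG300 + vehicle and CUG300 + CWG-cPIP were each 1 wild type C57BL/6J mouse, labelled 10 weeks of age, whose hippocampus had received an AAV9 vector carrying 300 CUG repeats behind the Egfp coding sequence. Per the study's methods, virus and compound or vehicle were injected together into CA1 of both dorsal hippocampi, and RNA was taken 10 days after gene transfer. No sorting of transduced cells is stated, and the promoter of the vector is not given in the sources used here. A CUG10 + vehicle mouse of the same strain and age, with 10 repeats, is given beside them as a level. All 5 splicing tables of this pair were used: 6679 alternative events were listed, of the 8727 listed in any pair of the series, and 2514 of them, in 1622 genes, had 20 or more counts in both libraries. With 1 mouse per group no difference between treatments could be tested. Each p-value below compares the reads of 2 libraries, and each interval covers counting error only.

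Expanded CUG RNA folds into hairpins that hold muscleblind-like (MBNL) proteins in nuclear foci. MBNL proteins bind YGCY-containing RNA and set the inclusion of developmentally regulated exons, so their loss returns many exons toward a fetal pattern, which is the splicing defect of myotonic dystrophy type 1 (DM1). CWG-cPIP is a cyclic pyrrole-imidazole polyamide, a small molecule that lies in the minor groove of CAG/CTG repeat DNA and hinders its transcription. The comparison asks how splicing differed when the repeat was delivered together with this compound.

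The 2 libraries differed in more than splicing. Event counts summed to 506271 in CUG300 + vehicle and 485036 in CUG300 + CWG-cPIP. The transthyretin gene Ttr, which defines the choroid plexus epithelium lying beside the hippocampus, took 7.59% of the vehicle counts and 0.0130% of the CWG-cPIP counts. The ratio of a gene's event counts, CWG-cPIP over vehicle in CPM (counts scaled to a library total of 1000000), also followed the length of its transcript. From the shortest of 5 length classes (348 to 1405 nt) to the longest (4520 to 23279 nt), the median ratio went through 0.686, 1.17, 1.61, 2.31 and 3.17, with a Spearman correlation of 0.64 across 1681 genes that share the 2 libraries. The same held along transcripts. Skipped exons within 71 to 620 spliced nt of the 3′ end had a median ratio of 0.645, and those 2841 nt or more away one of 2.79. Within 96 genes that had skipped exons at least 500 nt apart, the exon farther from the 3′ end had the higher ratio in 73. Against the CUG10 library the same classes ran from 0.847 to 2.07 for CUG10 over CUG300 + vehicle, and from 0.794 to 1.38 for CWG-cPIP over CUG10, so relative to short transcripts CUG300 + vehicle had the least signal from long ones and CUG300 + CWG-cPIP the most. The part of this gradient in the splicing and abundance values below was not tested beyond the values given with them.

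**Figure D1:**
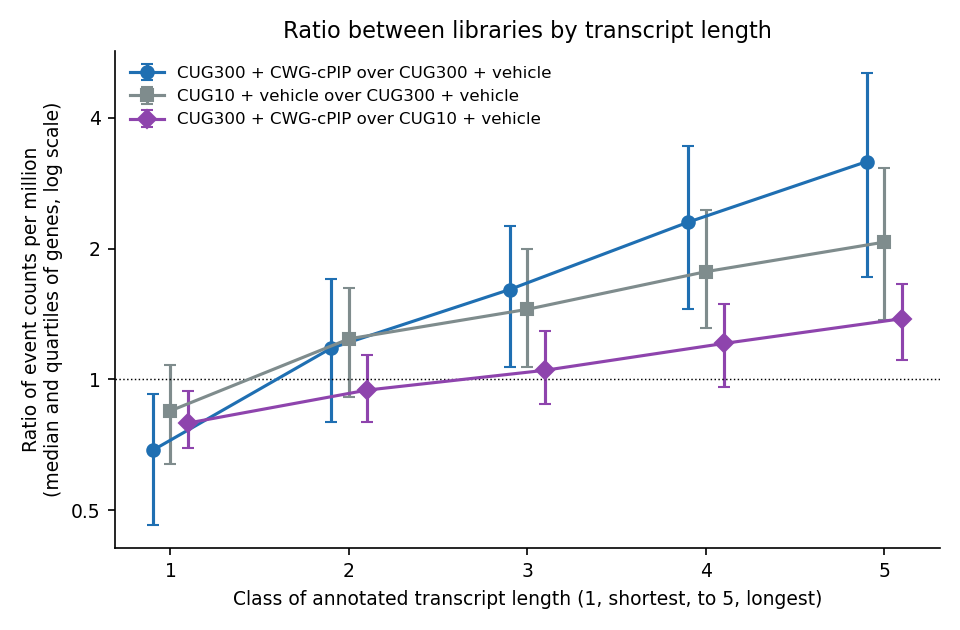
Median ratio of event CPM between libraries (log axis, bars are quartiles over genes) for 5 classes of annotated transcript length, for each of the 3 pairs of libraries and over events counted in all 3 libraries. All 3 ratios climb with length, most for CUG300 + CWG-cPIP over CUG300 + vehicle, from 0.687 in the shortest to 3.17 in the longest class.

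Inclusion is given as percent spliced in (PSI), which runs from 0 to 1 and is the share of the inclusion form once the counts of both forms are scaled by form length. The typical difference was small. The median absolute PSI difference over the 2514 events was 0.043, and 284 events (11.3%) differed by more than 0.15, 199 of them in the direction of more and 85 of less inclusion in CUG300 + CWG-cPIP. An event was called when its two-sided Fisher's exact test on the counts gave a Benjamini-Hochberg adjusted p below 0.05 within its event type and its PSI differed by more than 0.15. That left 25 events (0.994% of 2514), of which 21 (0.835%) had higher and 4 (0.159%) had lower PSI with CWG-cPIP. Before adjustment, 160 events had an exact p below 0.05.

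The event types differed in how many events were called. Skipped exons (SE), the most common type, gave 8 calls among 1953, and alternative 3′ splice sites (A3SS) gave 1 among 194. Mutually exclusive exon pairs (MXE) gave 16 calls among 156. No alternative 5′ splice site was called among 120 and no retained intron among 91, with 10 events of each type at an unadjusted exact p below 0.05. PSI was higher with CWG-cPIP in 59.8% of the skipped exons that differed (95% Clopper-Pearson interval 57.6 to 62.0), in 59.6% of the exon pairs (51.5 to 67.4) and in 65.6% of the retained introns (54.8 to 75.3). It was divided more evenly for alternative 5′ sites, 53.3% (44.0 to 62.5), and alternative 3′ sites, 50.5% (43.3 to 57.8). Events of a gene share reads, so these shares describe the pair of libraries.

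**Figure D2:**
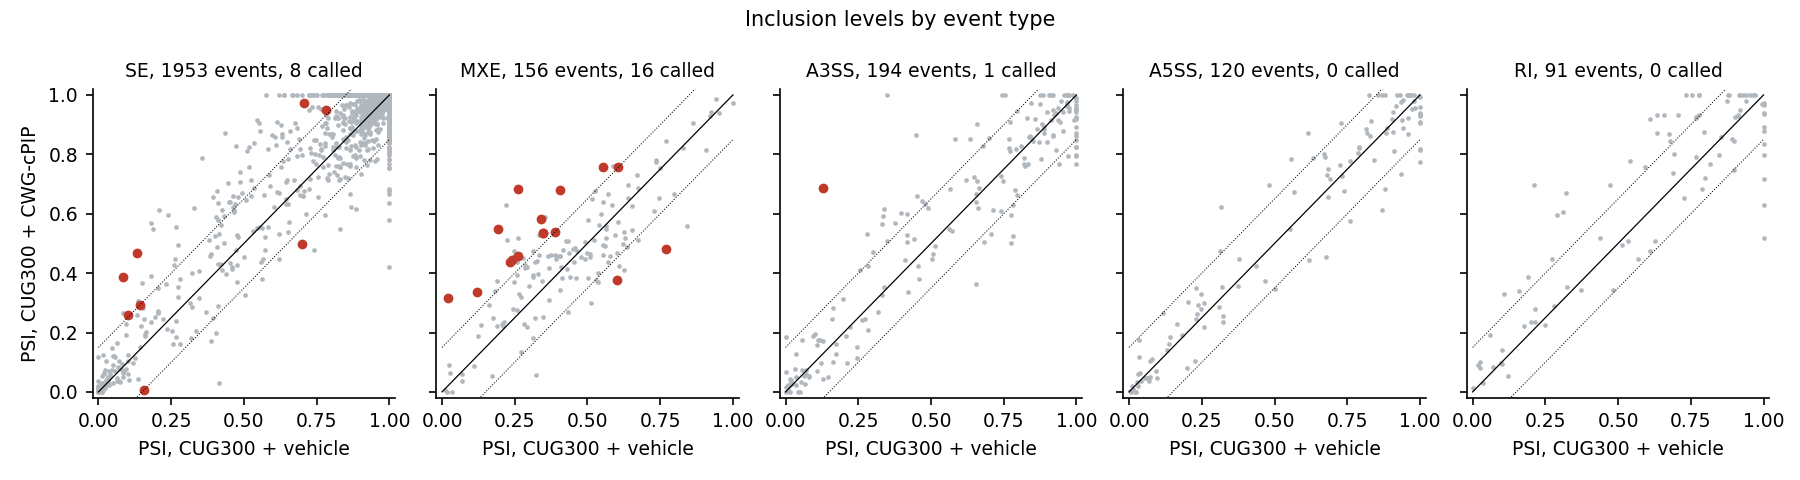
PSI of each event with 20 or more counts in both libraries, CUG300 + vehicle on the x axis and CUG300 + CWG-cPIP on the y axis, 1 panel per event type. Red points are the 25 called events, the solid line marks equal PSI and the dotted lines a difference of 0.15. The called exon pairs (MXE) lie mostly above the diagonal, 14 of 16.

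All 8 called skipped exons were multiples of 3 nt and longer than 27 nt, so that including them keeps the reading frame where they are coding. Among all 1953 skipped exons with the count minimum, 801 were of this class, 1121 were longer and not a multiple of 3, and 31 were microexons of 27 nt or shorter. PSI differed by more than 0.15 in 75 of the 801, in 78 of the 1121 and in 2 of the 31. The MBNL motif YGCY, searched as TGCT or TGCC and as CGCT or CGCC on the transcribed strand of the exon, occurred in 3 of the 8 called exons, namely both Rtn3 exons and the Prdx6 exon, and in 74.3% of the 1935 skipped exons whose sequence was annotated. The shorter Rtn3 exon, of 1161 nt, lies inside the longer one of 2124 nt, and exon length was not matched between the sets. The intron sequence around the exons was not examined.

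The exons of Ppp3ca, Ndrg4, Enpp2 and Hnrnpa2b1 are shown because they are coding skipped exons that carried the splicing differences. The alternative exon is in capitals, with 15 bases of the neighbouring exons in lower case (GENCODE M21 transcripts on mm10).
Ppp3ca: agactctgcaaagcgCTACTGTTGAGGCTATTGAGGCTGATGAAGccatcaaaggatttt
Ndrg4: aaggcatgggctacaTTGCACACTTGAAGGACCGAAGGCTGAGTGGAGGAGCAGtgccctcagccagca
Enpp2: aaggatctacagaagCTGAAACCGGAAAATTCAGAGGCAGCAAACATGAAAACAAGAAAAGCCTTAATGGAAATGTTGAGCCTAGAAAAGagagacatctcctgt
Hnrnpa2b1: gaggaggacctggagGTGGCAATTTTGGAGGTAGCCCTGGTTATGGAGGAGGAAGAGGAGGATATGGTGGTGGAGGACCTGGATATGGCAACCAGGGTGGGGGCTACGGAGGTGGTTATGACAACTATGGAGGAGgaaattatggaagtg

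Ppp3ca, the catalytic subunit of the calcium-dependent phosphatase calcineurin, which acts at the synapse in memory formation, had lower inclusion of its 30-nt coding exon with CWG-cPIP (chr3:136932011-136932040, plus strand, mm10). PSI was 0.699 in CUG300 + vehicle (95% interval 0.638 to 0.755, 225 inclusion and 69 skipping counts), 0.499 in CUG300 + CWG-cPIP (0.452 to 0.547, 269 and 192 counts) and 0.754 in CUG10 + vehicle (0.710 to 0.795). The CWG-cPIP library stood apart from both vehicle libraries, whose intervals overlapped. The difference was -0.20 (interval -0.270 to -0.124, adjusted exact p = 2.5e-04).

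Ndrg4, a member of the NDRG family found mainly in brain and heart, was the only gene of the DM1 list with a call. Its 39-nt coding exon (chr8:95712325-95712363, plus strand) had a PSI of 0.783 (0.684 to 0.864, 99 and 18 counts) with vehicle, 0.948 (0.919 to 0.969, 500 and 18 counts) with CWG-cPIP and 0.919 (0.884 to 0.947) in CUG10 + vehicle. Here the CUG300 + vehicle library was the low one. PSI differed by 0.165 (0.087 to 0.263, adjusted exact p = 0.00537), and by 0.119, under the threshold, when counts were not divided by form length. The event total of Ndrg4 was 4.54 times higher with CWG-cPIP, 828 against 3756 CPM.

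Enpp2 encodes autotaxin, the secreted enzyme that makes lysophosphatidic acid, and is strongly expressed in choroid plexus. Inclusion of its 75-nt coding exon (chr15:54851348-54851422, minus strand) was 0.083 (0.061 to 0.109, 49 and 270 counts) with vehicle, 0.387 (0.286 to 0.50, 47 and 37 counts) with CWG-cPIP and 0.444 (0.342 to 0.555) in CUG10 + vehicle. The library with the choroid plexus transcripts was again the low one. The difference was 0.304 (0.205 to 0.411, adjusted exact p = 1.5e-09). The Enpp2 event total went the opposite way to inclusion, with 4016 CPM with vehicle, 699 with CWG-cPIP and 720 in CUG10. The Ttr total was also highest with vehicle. In bulk tissue fewer cells of a type and less RNA per cell cannot be told apart, and the part of choroid plexus RNA in this exon was not tested.

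Rtn3, a reticulon that shapes the endoplasmic reticulum, gave 2 called events that end at the same base and share 1 skipping junction. The longer exon of 2124 nt (chr19:7456300-7458423, minus strand) had a PSI of 0.103 (0.076 to 0.140) with vehicle, 0.260 (0.220 to 0.307) with CWG-cPIP and 0.158 (0.134 to 0.187) in CUG10 + vehicle. The shorter form of 1161 nt (chr19:7456300-7457460) went from 0.143 to 0.293, and lies outside the rule for named events, which takes 1 event per gene. The differences were 0.158 (0.105 to 0.209, adjusted exact p = 8.2e-05) and 0.15 (0.087 to 0.210, adjusted exact p = 0.0106), the second just past the threshold before rounding. Both came under it, at 0.140 and 0.138, without division by form length. The inclusion counts of the longer exon, 160 with vehicle and 920 with CWG-cPIP, include reads that lie inside the exon.

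Prdx6, a peroxiredoxin that reduces phospholipid peroxides, was lower with CWG-cPIP on few counts. Its partly coding 111-nt exon (chr1:161249359-161249469, minus strand) had 8 inclusion and 17 skipping counts with vehicle, a PSI of 0.158 (0.066 to 0.315), and 1 and 73 counts with CWG-cPIP, a PSI of 0.005 (0.000 to 0.031). CUG10 + vehicle lay between at 0.083. The difference was -0.153 (-0.293 to -0.068, adjusted exact p = 0.0194).

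The splicing regulator list gave 4 calls, Hnrnpa2b1, Srsf9, Rnpc3 and U2af1, among 108 events, against 25 of 2514 (0.994%) overall. All 4 had higher PSI in CUG300 + CWG-cPIP, as did 21 of the 25 calls. Hnrnpa2b1 encodes a heterogeneous nuclear ribonucleoprotein whose glycine-rich domain is altered by this 120-nt exon (chr6:51464428-51464547, minus strand). Its PSI was 0.706 (0.601 to 0.800, 132 and 21 counts) with vehicle, 0.974 (0.926 to 0.994, 290 and 3 counts) with CWG-cPIP and 0.957 (0.896 to 0.988) in CUG10 + vehicle. Only the CUG300 + vehicle library showed frequent skipping. The difference was 0.268 (0.170 to 0.372, adjusted exact p = 7.7e-05), which fell to 0.127 without division by form length.

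Srsf9, an SR protein splicing factor, includes a 90-nt exon annotated only in noncoding transcripts (chr5:115331450-115331539, plus strand). PSI was 0.131 (0.075 to 0.209) with vehicle and 0.467 (0.322 to 0.626) with CWG-cPIP, and CUG10 lay between at 0.260 (0.159 to 0.392). The difference was 0.336 (0.180 to 0.487, adjusted exact p = 0.00636). Rnpc3, a protein of the minor spliceosome, used the upstream one of a pair of 3′ splice sites more often, with a PSI of 0.127 (0.066 to 0.249, 34 and 10 counts) against 0.688 (0.373 to 0.949, 103 and 2 counts) and 0.210 in CUG10 + vehicle (adjusted exact p = 0.0348). The region between its sites is 1652 nt of noncoding exon (chr3:113605648-113607299, minus strand), and the wide interval of the difference, 0.232 to 0.772, rests on the 2 counts of the shorter form with CWG-cPIP. U2af1, the small subunit of the factor that recognizes 3′ splice sites, had a PSI of 0.261 (0.158 to 0.387), 0.683 (0.553 to 0.795) and 0.450 (0.326 to 0.579) in CUG300 + vehicle, CUG300 + CWG-cPIP and CUG10 + vehicle, for an 88-nt exon against a 67-nt exon (adjusted exact p = 1.1e-04). Both U2af1 exons stand together in 3 annotated transcripts. This PSI can therefore also follow the coverage of the 5′ exon against the 3′ exon, which was not tested.

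Exon pairs need a word on what PSI measures. rMATS reports the first exon in transcript order as the inclusion form, and reads inside both exons were counted. Of the 156 pairs, 134 had an annotated transcript that holds both exons together. There PSI can also follow the coverage of the exon nearer the 5′ end against that of the exon nearer the 3′ end. PSI was higher with CWG-cPIP in 80 and lower in 54 of the 134, and 13 higher and 9 lower in the other 22. Of the 16 called pairs, 15 fell among the 134, and the other one was Dnm1. Leaving out the 15, an alternative chosen after seeing the data, left 10 of the 25 calls, 8 higher and 2 lower.

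Dnm1, the GTPase dynamin 1 that pinches off synaptic vesicles, chooses between 139-nt exons that encode alternative versions of its stalk. They are shown with Gria2 because both pairs are equal in length and code for the same stretch of protein. Capitals mark the bases that differ within a pair, 39 of 139 in Dnm1 (71.9% identical) and 36 of 115 in Gria2 (68.7% identical), and each pair is written with the first exon in transcript order first.
Dnm1 first: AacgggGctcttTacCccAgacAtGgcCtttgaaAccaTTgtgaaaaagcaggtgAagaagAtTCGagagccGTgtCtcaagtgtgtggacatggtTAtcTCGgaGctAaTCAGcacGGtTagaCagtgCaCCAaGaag
Dnm1 second: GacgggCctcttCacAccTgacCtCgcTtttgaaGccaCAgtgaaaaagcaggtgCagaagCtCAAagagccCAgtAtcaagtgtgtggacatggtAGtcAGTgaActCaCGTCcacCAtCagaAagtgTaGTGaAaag
Gria2 first: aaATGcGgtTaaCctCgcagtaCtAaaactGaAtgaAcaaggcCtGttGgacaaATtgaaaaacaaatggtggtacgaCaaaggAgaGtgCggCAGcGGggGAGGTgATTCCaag
Gria2 second: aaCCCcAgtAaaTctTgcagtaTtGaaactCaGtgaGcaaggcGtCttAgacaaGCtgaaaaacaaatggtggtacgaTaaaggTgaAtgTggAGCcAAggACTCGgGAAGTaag

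The first Dnm1 exon (chr2:32334682-32334820, minus strand, the second being chr2:32333066-32333204) took 12 of 100 counts with vehicle, a PSI of 0.120 (0.064 to 0.20), and 193 of 573 with CWG-cPIP, a PSI of 0.337 (0.298 to 0.377). CUG10 + vehicle lay between at 0.203 (0.167 to 0.242). The difference was 0.217 (0.130 to 0.281, adjusted exact p = 2.1e-04). Gria2 encodes the AMPA receptor subunit that limits calcium entry, and its pair is the flop exon (first, chr3:80691320-80691434, minus strand) and the flip exon (second, chr3:80690404-80690518), which set how fast the receptor desensitizes. The flop share was 0.605 (0.524 to 0.682) with vehicle, 0.756 (0.699 to 0.807) with CWG-cPIP and 0.695 (0.636 to 0.748) in CUG10 + vehicle. This is a difference of 0.151 (0.059 to 0.242, adjusted exact p = 0.0260), just past the threshold, and the call was lost when p-values were adjusted over all event types together. The Gria2 exons stand together in 1 annotated transcript, and Gria2 lies outside the rule for named events and was chosen after its values were seen.

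Cox6b1, a subunit of cytochrome c oxidase, had the smallest adjusted p of the 25 calls. PSI of its first exon (114 nt against 101 nt) was 0.193 (0.175 to 0.212, 355 and 1385 counts), 0.547 (0.515 to 0.579, 540 and 416 counts) and 0.340 (0.314 to 0.366) in CUG300 + vehicle, CUG300 + CWG-cPIP and CUG10 + vehicle, with no overlap of the 3 intervals (difference 0.355, adjusted exact p = 5.0e-77). Its exons stand together in 1 annotated transcript, so this PSI can also follow coverage, which was not tested for this pair. Tusc3, a subunit of the oligosaccharyltransferase complex, went from 0.340 to 0.581, with 0.479 in CUG10 (adjusted exact p = 7.1e-09). Mrps18c, a mitochondrial ribosomal protein, went from 0.406 to 0.679, with 0.482 in CUG10 (adjusted exact p = 1.1e-04). In Epn1, an endocytic adaptor, PSI was 0.234 (0.192 to 0.281) with vehicle, 0.437 (0.401 to 0.472) with CWG-cPIP and 0.270 (0.240 to 0.303) in CUG10 (adjusted exact p = 1.3e-09). In Tpm1, an actin-binding tropomyosin with a pair of alternative 126-nt exons, it was 0.021 (1 of 47 counts), 0.317 (13 of 41 counts) and 0.180 (11 of 61 counts), with an adjusted exact p of 0.00473 for the CUG300 pair.

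The 2 called pairs that were lower with CWG-cPIP were Irf7 and Smox. Irf7, the master factor of the type I interferon response, had a PSI of 0.769 (0.711 to 0.820, 236 counts) with vehicle and 0.481 (0.295 to 0.670, 30 counts) with CWG-cPIP (adjusted exact p = 0.0298), while CUG10 + vehicle had only 2 counts. Smox, spermine oxidase, went from 0.60 (0.493 to 0.706) to 0.377 (0.307 to 0.454), with 0.580 (0.481 to 0.679) in CUG10 (adjusted exact p = 0.0110). Both lost the call when p-values were adjusted over all event types. The other called pairs were higher with CWG-cPIP and were Tpt1, Edf1, Hdgfrp2, Ggnbp2, Pam and Eif4g2, with differences from 0.151 to 0.202. These and Smox are outside the rule for named events and are listed after their values were seen.

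The CUG10 library was set beside the 25 calls as a level. In the 23 called events with 20 or more CUG10 counts, CUG10 PSI lay between the 2 CUG300 libraries in 20, at or beyond CWG-cPIP in 2 (Enpp2 and Eif4g2) and on the vehicle side in 1 (Ppp3ca). Counting from vehicle as 0 to CWG-cPIP as 1, its median position was 0.44. For the 273 of the 284 events with a PSI difference above 0.15 that had such counts, 150 lay between, 88 at or beyond CWG-cPIP and 35 on the vehicle side. These events were picked for a difference between the other two libraries, so the positions are a description with no test.

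**Figure D3:**
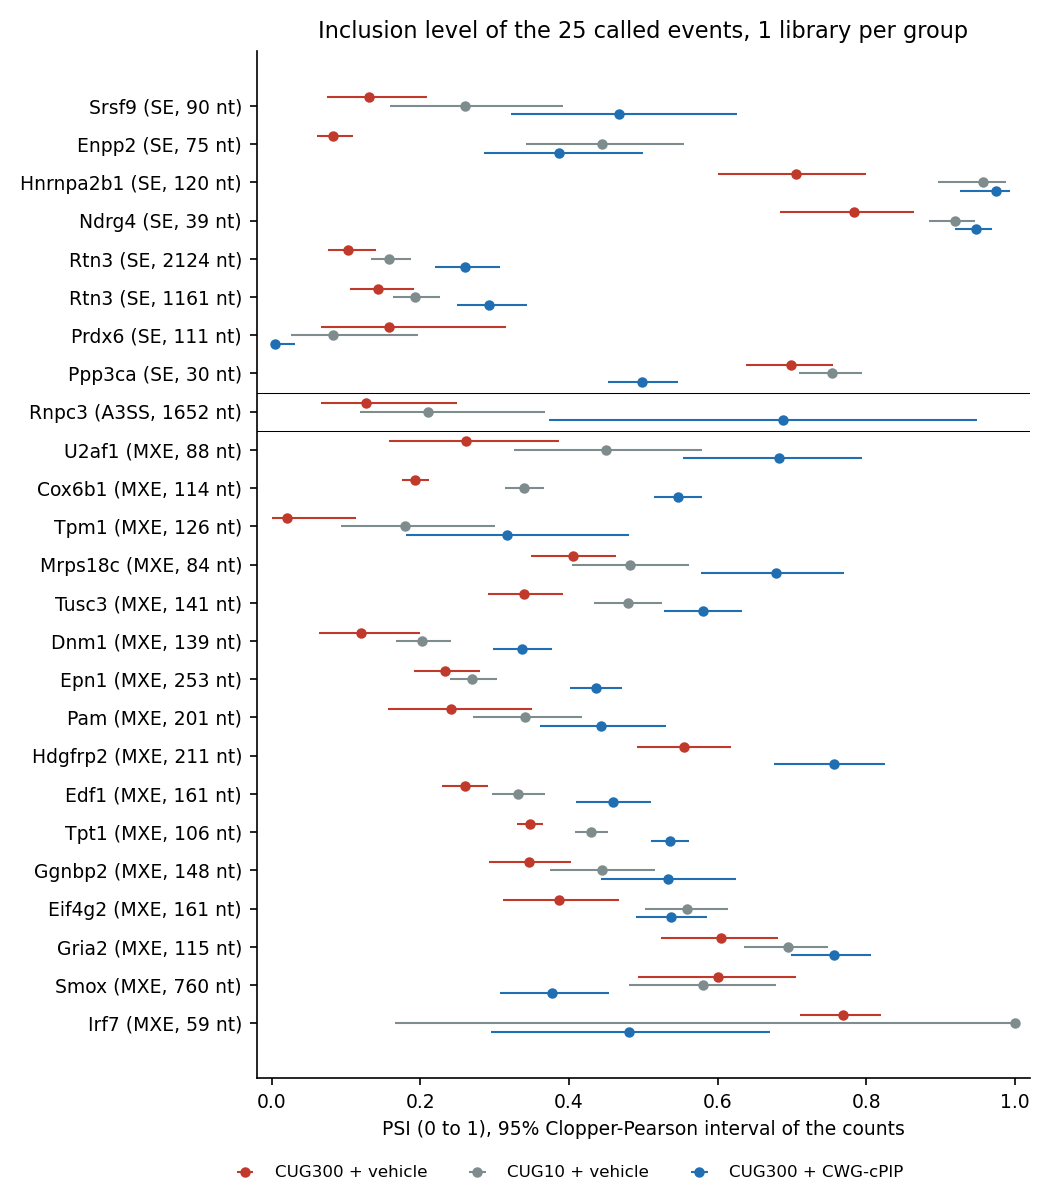
PSI with 95% Clopper-Pearson intervals of the counts for the 25 called events in CUG300 + vehicle (red), CUG10 + vehicle (grey) and CUG300 + CWG-cPIP (blue), 1 library each, with event type and length of the inclusion exon or region in nt. In most events the grey point lies between red and blue, 20 of the 23 with enough counts, and Hdgfrp2 has no CUG10 value.

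Few genes of the DM1 and MBNL list had enough counts to be read. Of its 51 genes, 13 had an event with 20 or more counts in both libraries, giving 34 events, of which 5 were higher and 4 lower by more than 0.15 (26.5%, against 11.3% of all events), and 1, in Ndrg4, was called. The events past 0.15 came from Bin1, Grin1, Csnk1d and Ndrg4 only. Most were overlapping events of Bin1 and Grin1 that share reads, so the 26.5% is not a share of separate genes. The median absolute difference was 0.059, against 0.043 over all events. Grin1, the obligatory NMDA receptor subunit, had a PSI of 0.776 (0.641 to 0.885) with vehicle, 0.50 (0.417 to 0.588) with CWG-cPIP and 0.580 (0.496 to 0.666) in CUG10 for an alternative 3′ site at its C-terminal end (adjusted exact p = 0.0885). Bin1, a membrane-bending adaptor and an established DM1 target in muscle, had 0.630 (0.494 to 0.757), 0.868 (0.729 to 0.954) and 0.741 (0.617 to 0.845) for a 72-nt exon (adjusted exact p = 0.922). With other flanking exons the same Bin1 exon had a PSI of 1.000, 0.944 and 1.000, and a 108-nt exon was listed with 0.830, 0.550 and 0.951 in one event and 0.469, 0.633 and 0.583 in another, so Bin1 events went both ways. None of these passed the test. App, the amyloid precursor protein, was among the deepest of the list, and its 168-nt exon had 0.085, 0.050 and 0.034 in the order CUG300 + vehicle, CUG300 + CWG-cPIP and CUG10, none of it past the threshold. It was singled out after its values were seen.

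Other lists were read against the same background of 11.3%. Of the events of the splicing regulator list, 20 of 108 were higher and 3 lower by more than 0.15, with 4 called. For neuron and synapse genes 7 of 60 were higher and 6 lower, with 3 called. For the endocytosis and vesicle traffic list 7 of 54 were higher and 3 lower, with 2 called, and for the tropomyosin, actin and microtubule list 4 of 24 were higher and 1 lower, with 1 called. Respiratory chain genes had 3 higher and 2 lower of 58, and cytosolic ribosomal protein genes had none of 41 past 0.15. The ribosomal list held the event nearest to the threshold, the 20-nt exon of Rps24, a small-subunit protein, with a PSI of 0.781 (0.756 to 0.804) with vehicle, 0.931 (0.887 to 0.961) with CWG-cPIP and 0.920 (0.889 to 0.945) in CUG10 and an adjusted exact p of 8.2e-05. Its difference of 0.15 did not exceed the threshold before rounding.

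Glial and immune lists gave few events that could be read. Oligodendrocyte, astrocyte, microglia and MHC class I genes had 18, 6, 9 and 11 events, none past 0.15. Interferon-stimulated genes had 1 higher and 4 lower of 39, with Irf7 called. Irgm1, an interferon-induced GTPase, had a PSI of 0.387 (0.279 to 0.515) with vehicle and 0.171 (0.10 to 0.273) with CWG-cPIP for a 219-nt exon, and did not pass the test (adjusted exact p = 0.514).

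The event counts also give a coarse view of abundance, when summed over the events of a gene and divided by the library total. Such totals cover only genes with a listed event, a read can be counted in several events, which makes the intervals too narrow, and a total moves with the inclusion of long exons. Of 4000 genes, 1684 had 50 or more counts in at least 1 of the 2 libraries, so a gene could enter through the library where it was higher. The shares of all genes quoted below, and the length-class medians of this ratio, come from this set. In CUG300 + CWG-cPIP, 614 of the 1684 (36.5%) were 2-fold or more higher and 176 (10.5%) 2-fold or more lower than in CUG300 + vehicle. Their median ratio was 1.45, and that of genes with 50 or more counts in both libraries was 1.17 (0.23 on the log2 scale). Because of the length gradient, each ratio was also divided by the median ratio of its length class, an alternative chosen after seeing the data. On that scale 177 genes (10.5%) were 2-fold or more higher and 277 (16.4%) 2-fold or more lower.

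Choroid plexus genes differed most between the libraries. Of 38 in the list 9 were counted, and all 4 with enough counts were 2-fold or more lower with CWG-cPIP, against 10.5% of all genes. Ttr, the thyroid hormone carrier, had 38435 counts (75918 CPM) with vehicle, 63 (130 CPM) with CWG-cPIP and 201 CPM in CUG10. Only the CUG300 + vehicle library was high, by 584 times over CWG-cPIP. Folr1, the choroid folate receptor, had 96 and 4 counts (ratio 0.0435, 0.0116 to 0.115). Calml4 had 253 and 23 counts (ratio 0.0949). Of the 8 defining markers Kl, Kcnj13, Clic6 and Aqp1 had no listed event. The family ratio was 0.0115 (0.0105 to 0.0126), and 0.0157 relative to length class, with Ttr holding most of the counts. Without Ttr it was 0.168, and the median of the 4 genes was 0.0692. Rarres2, the 1 ependymal gene with enough counts, was also lower (ratio 0.281).

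Interferon and antigen-presentation genes also had lower totals with CWG-cPIP. Of 28 interferon-stimulated genes with enough counts 23 were 2-fold or more lower and 1 higher, against 10.5% and 36.5% of all genes. The family went from 26271 to 4824 CPM, with 1468 in CUG10 (ratio 0.184, 0.176 to 0.192). Irf7 went from 12122 to 1505 CPM, with 232 in CUG10. Bst2, the protein tetherin that holds budding viruses at the membrane, went from 4353 to 305, with 92.8 in CUG10. Oas1a, a sensor of double-stranded RNA, had 316 and 10 counts (ratio 0.0330, 0.0157 to 0.0616). The CWG-cPIP library lay between the other two for these 3 genes, nearer to CUG10. In CUG300 + vehicle, CUG300 + CWG-cPIP and CUG10 + vehicle, Xaf1 shared this order (1681, 289 and 101 CPM), and Ifi27 did not (853, 344 and 366 CPM). Relative to length class 25 of the 28 were 2-fold or more lower and none higher, against 16.4% and 10.5% of all genes.

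All 8 MHC class I and peptide-loading genes with enough counts were 2-fold or more lower, against 10.5% of all genes. H2-K1, a classical class I heavy chain, had 3970 CPM with vehicle, 468 with CWG-cPIP and 259 in CUG10 (ratio 0.118), B2m, the shared light chain, had 12568, 3950 and 1932 (ratio 0.314), and the immunoproteasome subunit Psmb8 had 2534, 320 and 71.6 (ratio 0.126). Reads of the H2 genes can be split among near-identical copies, so single H2 values are uncertain. The order vehicle, CWG-cPIP, CUG10 was shared by these 3 genes, while H2-D1 was slightly lower with CWG-cPIP (326) than in CUG10 (377). All 8 stayed 2-fold or more lower relative to length class, against 16.4% of all genes. Of the 2 MHC class II genes H2-Ab1 had a ratio of 0.193 and Cd74, the invariant chain, one of 0.572. Gimap4, the lymphocyte gene with enough counts, had a ratio of 0.161.

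Microglia and myeloid genes were mixed. Of 7 with enough counts 4 were lower, among them Aif1 (IBA1), a marker of microglia and macrophages, with 437 and 40 counts (ratio 0.0955, 0.0673 to 0.132), Fcer1g, the common Fc receptor chain (ratio 0.140), and Ctss, a lysosomal protease (ratio 0.311). Sirpa, the CD47 receptor, which neurons express as well, was higher with 10 and 93 counts (ratio 9.71). Relative to length class there were also 4 lower and 1 higher, against 16.4% and 10.5% of all genes. Of 3 complement and acute injury genes Timp1, a metalloprotease inhibitor, was lower with 54 and 4 counts (ratio 0.0773), and C4b, a complement component, had a ratio of 0.744 (0.528 to 1.04). Relative to length class all 3 of these genes were 2-fold or more lower, against 16.4% of all genes.

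Neuronal genes were higher with CWG-cPIP in CPM. Of 25 with enough counts 19 were 2-fold or more higher and none lower, against 36.5% and 10.5% of all genes, and the family went from 18731 to 47277 CPM, with 45361 in CUG10 (ratio 2.52, 2.46 to 2.59). Snap25, a SNARE of the synapse, had 2046 CPM with vehicle, 7389 with CWG-cPIP and 7478 in CUG10. Eno2, neuronal enolase, had 648, 2534 and 1969. CWG-cPIP and CUG10 both lay above CUG300 + vehicle for both genes. Neuronal transcripts were long, with a median of 4023 nt, and relative to length class the family ratio was 1.15. On that scale 8 genes were 2-fold or more higher and 1 lower, against 10.5% and 16.4% of all genes. Snap25, with a transcript of 2116 nt, kept a ratio of 3.08 and Eno2 one of 2.43. Chn1 (1.05), Celf4 (0.886) and Dnm1 (0.849) came near or below 1.

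Other families, most of them with long transcripts, went the same way. Of 24 endocytosis and vesicle traffic genes 15 were 2-fold or more higher (family ratio 1.98), of 20 DM1 and MBNL targets 15 (2.08), of 55 splicing regulators 30, with 1 lower (1.73), and of 16 tropomyosin, actin and microtubule genes 10 (1.10). These shares stand against 36.5% of all genes and 58.6% and 71.1% of those in the 2 longest length classes. The median transcript of the splicing regulators was 3150 nt, in the middle class, where 34.4% of genes were 2-fold or more higher. Relative to length class the 4 summed ratios were 1.04, 0.752, 0.816 and 0.739, while the medians of the members were 0.982, 1.46, 1.15 and 1.20, so sum and median lay on opposite sides of 1 in every one of these families. App, the most counted DM1 gene, held 2848 of the 5582 vehicle counts of its family. Relative to length class 8 of the 20 DM1 genes were 2-fold or more higher and 2 lower, against 10.5% and 16.4% of all genes. Single genes differed in how far the length scale moved them. Snap91, a clathrin assembly protein, had a ratio of 4.2 and 1.82 relative to length class, Snrnp70, a U1 small nuclear ribonucleoprotein, 3.12 and 2.66, and Dnm1 2.69 and 0.849.

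Families with short transcripts went the other way. Of 28 cytosolic ribosomal protein genes with enough counts 14 were 2-fold or more lower and none higher, with a family ratio of 0.447 (0.440 to 0.453), and Rps9 had 22134, 8585 and 11867 CPM in CUG300 + vehicle, CUG300 + CWG-cPIP and CUG10 + vehicle. Rps14 and Rpl11 had ratios of 0.303 and 0.306. Of 32 respiratory chain genes 8 were lower and none higher (family ratio 0.645). Both counts stand against 10.5% lower among all genes and 29.3% in the shortest length class, and the median transcripts of these families were 1028 and 1056 nt long. Cox4i1, of cytochrome c oxidase, had 11045, 5457 and 9114 CPM. The CWG-cPIP library was the lowest of the 3 for these genes. Relative to length class the ribosomal ratio was 0.534, with 8 genes lower and 1 higher, and the respiratory chain ratio 0.762, with 4 lower. On that scale 16.4% of all genes were lower and 10.5% higher.

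Glial genes other than microglia varied from gene to gene. Of 5 astrocyte genes 4 were higher, against 36.5% of all genes. The family ratio of 1.40 became 0.867 relative to length class, with 3 genes 2-fold or more higher and 1 lower. Ndrg2 was among the 4 (83.0, 456 and 228 CPM in the same order of libraries). So was Slc6a11, the GABA transporter GAT-3, with 1 and 78 counts (1.98, 161 and 15.5 CPM, ratio 81.4, 14.2 to 3256). Only the CWG-cPIP library was high for Slc6a11. Gfap, the intermediate filament that marks reactive astrocytes, was not among the 4, with 1572, 1111 and 611 CPM (ratio 0.707, 0.632 to 0.789). Of 9 oligodendrocyte genes 4 were higher, near the 36.5% of all genes, and the family ratio of 1.06 became 0.508 relative to length class. Mbp, of compact myelin, had a ratio of 1.36 and, relative to length class, one of 0.430. Of 6 endothelial, mural and fibroblast genes 1 was lower, Ly6a, with a ratio of 0.347, against 10.5% of all genes. Relative to length class Ly6a had a ratio of 0.505, and 0 of the 6 were 2-fold or more lower.

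**Figure D4:**
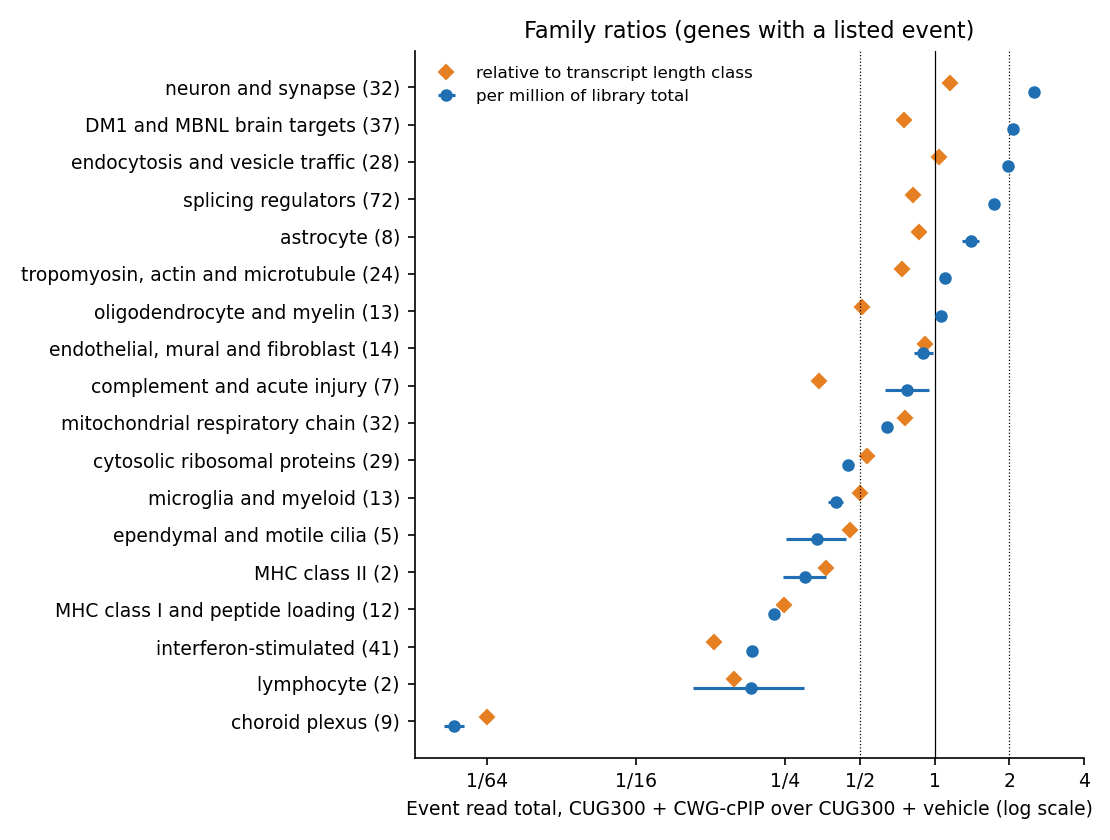
Ratio of summed event CPM, CUG300 + CWG-cPIP over CUG300 + vehicle (log axis), for 18 gene families with the number of genes that had a listed event. Blue circles are the ratios with 95% exact binomial intervals of the counts, orange diamonds the ratios relative to the median of each gene's transcript length class, and dotted lines mark 2-fold. Choroid plexus (0.0115), interferon-stimulated (0.184) and MHC class I (0.226) genes stay far to the left on both scales, while the neuron and synapse ratio moves from 2.52 to 1.15.

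Of genes outside the lists, the 6 whose ratio interval lay highest above 1 were Zfr, an RNA-binding zinc finger protein, Sparcl1, the synaptogenic astrocyte protein hevin, Lmtk3, Dzank1, Iqsec3 and Snph. Sparcl1 had 83 and 831 counts (ratio 10.5, 8.33 to 13.3, and 6.49 relative to length class), and the others had 1 to 8 counts with vehicle and 50 to 126 with CWG-cPIP. All but Sparcl1 were in the longest length class. The 6 on the other side were Plac8, Cd63, Lilrb4a, Ifi205, H2-T9 and 1500012F01Rik, of which H2-T9 has near-identical copies. Plac8, a cysteine-rich protein of immune cells, had 649 and 18 counts (ratio 0.0289, 0.0170 to 0.0461), and Cd63, a lysosomal tetraspanin, 1424 and 119 (ratio 0.0872, 0.0717 to 0.105).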

How the data were processed

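Hippocampal total RNA of 3 mice, 1 per group, was sequenced from directional libraries. Per the submitters' processing notes, Trim Galore 0.6.6, STAR 2.7.9a, RSEM 1.3.3 and DESeq2 1.36.0 were used with mm10, and the study's methods name rMATS for splicing. The deposited tables hold, for each event and library, counts of inclusion and skipping reads (junction and exon-body reads), made by the authors with rMATS. They also hold the inclusion level as a fraction, deposited by the authors and used here only to check the recomputed PSI, which deviated by at most 0.0005. The authors' p-values, FDR and PSI differences were not used. Counts that a library has in both of its pairs were identical in all 14737 cases.

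Groups were taken from the treatment labels. Events needed 20 counts in both libraries. PSI was recomputed from counts and effective lengths (74 nt for the skipping form of a skipped exon, which differs from the read length in the study's methods, a difference not resolved here), with Clopper-Pearson intervals per library and Newcombe intervals for differences. Counts were compared by two-sided Fisher's exact test with Benjamini-Hochberg adjustment within event type over all listed events. Gene totals were counts summed over events, scaled to a library total of 1000000 (CPM), with exact binomial intervals of the ratio and no test. CUG10 levels used the 6445 of 6679 events counted in all 3 libraries, whereas the CPM of genes and families in the CUG300 libraries used all 6679. Transcript lengths, 3′ distances and exon sequences came from GENCODE M21 (3992 of 4000 symbols matched, older symbols through RefSeq), using the longest protein-coding transcript of a gene. The tests and intervals were checked on simulated independent counts only. Those counts had no spread between animals, no reads shared between events and no coverage gradient, so the check does not cover these features. Python 3.11.15, scipy 1.17.1 and pandas 2.3.3 were used.

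The gene lists and members were chosen with earlier results of these data known. Named events were, among calls, the 14 skipped exons and 4 of each other type with the interval farthest from 0, at most and with 1 event per gene, and up to 3 genes per list. Named totals were up to 5 genes past 2-fold per list, its most counted gene, the choroid markers, and 6 unlisted genes in each direction. A few genes chosen this way are not reported here, although counts and family totals include them. Alternatives covered count minimums, thresholds, p-value adjustment, form length, scaling and the events summed. The exon pairs sharing a transcript and the length classes were added after seeing the data.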

Additional observations from a re-analysis of the deposited data

How the results depend on the processing

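With a PSI difference above 0.2 there were 15 calls, 13 higher and 2 lower, and with adjustment over the events with the count minimum only there were 38, with 11 lower. Lower calls numbered 2 with a minimum of 50 counts and 2 with adjustment over all event types. Without exon pairs that share a transcript there were 10 calls, 8 higher and 2 lower. Without scaling by form length 4 called skipped exons (2 of Rtn3, Hnrnpa2b1 and Ndrg4) came under the size threshold. Adjustment over all event types left 6 called pairs (Gria2, Pam, Smox, Irf7, Ggnbp2 and Eif4g2) with an adjusted p above 0.05, and adjustment over events with the minimum brought in Ly6e, Grin1 and Tpm3 among the named events. The share of skipped exons with higher PSI was 57.4% at a minimum of 10 counts.

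Genes 2-fold or more higher numbered 1105 and 334 at minimums of 20 and 100 counts, 351 at 3-fold and 177 relative to length class. Lower genes numbered 303 at 1.5-fold, 78 at 3-fold and 277 relative to length class. Families 2-fold or more higher, 2 as reported, were 1 with the median gene ratio as the scale, 1 with library totals without Ttr, 6 by the median of the members and 0 relative to length class, whereas 7 or 8 families were 2-fold or more lower under each of these. Of the ratios past 2-fold, those below 1 relative to length class were those of the DM1 and MBNL targets (0.752 for the summed counts, with a median of 1.46 over the members) and of Add1 (0.789), Celf2 (0.795), Celf4 (0.886), Cttn (0.941), Dnm1 (0.849), Matr3 (0.636), Mobp (0.940), Nsf (0.925) and Sptan1 (0.811). The cause was not tested. With 1 mouse per group no spread between animals could be set beside any value. No paired analysis was possible because each group had 1 sample. Depth limited the reading of the 3941 listed events with under 20 counts in CUG300 + vehicle and the 2904 in CUG300 + CWG-cPIP.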

Other observations

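Several events of the lists had large PSI differences that did not pass the adjusted test. Immt, which organizes the cristae of mitochondria, had a PSI of 0.355 (12 and 9 counts) with vehicle, 0.788 (36 and 4 counts) with CWG-cPIP and 0.647 in CUG10 + vehicle for a 105-nt coding exon (adjusted exact p = 0.743). Surf1, an assembly factor of cytochrome c oxidase, went the other way, with no skipping among 41 counts with vehicle and 6 of 28 with CWG-cPIP. Tpm3, a tropomyosin, used the first of a pair of 76-nt exons with a PSI of 0.432 (0.341 to 0.527), 0.269 (0.196 to 0.352) and 0.186 (0.133 to 0.249) in CUG300 + vehicle, CUG300 + CWG-cPIP and CUG10 + vehicle (adjusted exact p = 0.0853). Unlike most called pairs, these exons stand together in no annotated transcript. Ly6e, a GPI-anchored surface protein, had 0.774, 0.597 and 0.648 for a 3′ splice site shift of 3 nt (adjusted exact p = 0.129).

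Event totals of 4 further genes of the lists, chosen after their values were seen, were higher with CWG-cPIP. Nfasc, the cell adhesion protein neurofascin of the node of Ranvier, had 5 and 57 counts (ratio 11.9, 4.81 to 38.0, and 3.75 relative to length class). Qk, the RNA-binding protein quaking that regulates myelin transcripts, had 49 and 216 counts (ratio 4.60, and 1.45 relative to length class). Atp6v0a1, a subunit of the proton pump that fills synaptic vesicles, had 261 CPM with vehicle, 1313 with CWG-cPIP and 832 in CUG10 + vehicle (ratio 5.04, and 2.18 relative to length class). Mapt, which encodes tau, had 69.1, 305 and 205 CPM (ratio 4.41, and 1.39 relative to length class). These totals have no test, and the part of transcript length in them was not tested beyond the ratios given.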
